A study of Mus musculus with 9 samples.

Results

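Smooth muscle cells (SMC) sorted from fetal mouse lung were set against the intermediate mesenchymal cells (INM) of the same stage, across all array features that carry 1 gene symbol. The 6 arrays titled SMC or INM, 3 in each group, were taken from the 9 arrays of the series, and 43941 of 62976 features had a symbol, standing for 24306 genes. In every group pregnant mice had received tamoxifen (0.1 mg per g body weight) at E15.5, and red fluorescent (RFP-positive) lung cells were sorted at E18.5 by their staining for Acta2 (SMA), a smooth muscle actin, and for PDGFRalpha, a growth factor receptor. SMC were the fraction with a high Acta2 and a low PDGFRalpha level, labelled as airway and vascular smooth muscle. INM were low for both and were labelled as undifferentiated progenitors. The remaining 3 arrays came from alveolar myofibroblast progenitors (MYF), sorted as PDGFRalpha-positive cells, and entered the fits to estimate the spread and for the comparison at the end. The design gives 3 mice per group. The gene that drives the recombinase behind the RFP label is not given in the sources used here. Total RNA was amplified, labelled with Cy3 and hybridised to one-colour Agilent arrays, and all values below are log2 signals as deposited.

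Smooth muscle cells wrap the airways and vessels of the lung and contract through actin and smooth muscle myosin, held to the membrane and to dense bodies by linker proteins such as desmin and dystrophin. Their contractile genes are switched on by serum response factor, which binds a short DNA element called the CArG box, together with the coactivator myocardin. Late in gestation the lung mesenchyme also holds lipid-storing and matrix fibroblasts, which are known for retinoid metabolism and for secreting FGF10, a ligand that signals to the epithelium. Heart muscle lies next to these tissues, and cardiomyocytes also form the sleeves of the pulmonary veins in mice.

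One of the 6 arrays stood apart. SMC replicate 1 correlated with the other 8 arrays at Pearson's r of only 0.43 to 0.45 across features, whereas those 8 correlated with each other at 0.86 to 0.97. It also held 9009 distinct signal values, against 25100 to 26759 on each of the other 8 arrays. Over genes whose INM mean was at or above the median level (6.00), SMC replicate 1 lay below all 3 INM arrays for 63.2% of genes, and the median difference from the INM mean was -1.90. Over the dimmer genes it lay above all 3 INM arrays for 60.2%, with a median difference of 1.16. Its position beside INM therefore followed the level of a gene, and results are given with all 3 SMC arrays and with SMC replicates 2 and 3. These 2 arrays correlated with each other at 0.90, below the 0.96 to 0.97 among the INM arrays and below the 0.91 to 0.94 of either with an INM array. Their median distance over genes was 0.70, against 0.38 to 0.43 between INM arrays. The p-values below rest on 1 spread per gene, shared by the SMC, MYF and INM arrays in a fit.

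**Figure D1:**
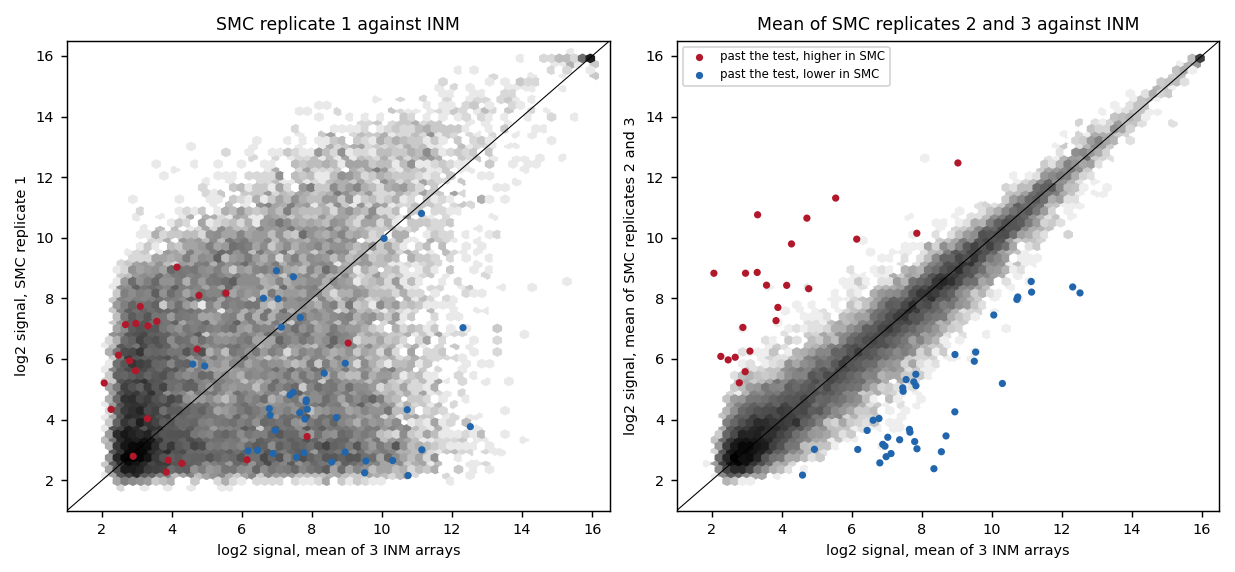
Log2 signal of SMC replicate 1 (left) and of the mean of SMC replicates 2 and 3 (right) on the vertical axes against the mean of 3 INM arrays on the horizontal axes. Grey shading is the number of genes on a log scale, the line marks equal signal, and coloured points are the 60 genes past the test once SMC replicate 1 was left out, 22 higher (red) and 38 lower (blue). Replicate 1 spreads widely around the line, while the mean of the other SMC arrays follows it.

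The genes of the sort went the way of the labels. Acta2 read 14.77, 15.88 and 14.79 in SMC replicates 1 to 3, against 13.43, 13.44 and 13.84 in INM. In this probe, the brightest of 4, the groups did not overlap, and Acta2 was among the brightest genes in both. The difference was 1.76 ± 0.38 (SE) without SMC replicate 1, with a limma adjusted p of 0.119, and 1.58 ± 0.47 with it. The other Acta2 probes differed by 1.55, 1.07 and 1.76 without SMC replicate 1, but their groups overlapped over all 6 arrays. With SMC replicate 1 left out, only the probe that differed by 1.55 overlapped. That probe read 3.13, 13.66 and 11.65 in SMC, against 10.62, 10.53 and 12.15 in INM. Pdgfra read 1.98, 6.93 and 6.89 in SMC, against 8.66, 8.46 and 8.30 in INM. Every SMC array lay below every INM array in this probe, and the difference was -1.56 ± 0.33 without SMC replicate 1 (adjusted p = 0.119). The other Pdgfra probes differed by -1.53 and -0.48 and overlapped. The former read 7.95, 2.78 and 2.74 in SMC, against 4.39, 2.75 and 5.73 in INM, so SMC replicate 1 lay above INM there. In MYF, the PDGFRalpha-positive fraction, Pdgfra read 13.63, 13.04 and 13.87. Neither gene passed the test between SMC and INM, and both groups hold a high Acta2 signal.

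With all 9 arrays 0 of 24286 genes passed limma's test (0%, Benjamini-Hochberg adjusted p under 0.05), and 1935 had an unadjusted p under 0.05. The smallest adjusted p was 0.0744. Without SMC replicate 1 the test called 60 of 24282 genes (0.247%), of which 22 were higher in SMC (0.0906%) and 38 lower (0.156%). Centring each array on its median called 33 higher and 37 lower. The 60 calls rest on the spread of the 3 MYF arrays as well: with the 2 SMC and 3 INM arrays alone 0 genes passed, with the replicate number as a block 0, with array weights 3, and with 1 further MYF or INM array left out 5 to 21. Leaving out a further SMC array moved the count upward, to 984 without replicate 2 and 643 without replicate 3, with 1 SMC array left in the fit. The differences of the called genes ran from 2.29 to 7.45 in the higher group and from 1.91 to 5.97 in size in the lower group. The calls rest on SMC replicates 2 and 3, which lay outside the INM range in 22 higher and 37 lower genes. In 15 of the 22 higher and 28 of the 38 lower genes SMC replicate 1 did so too, on the same side. Over all genes SMC replicates 2 and 3 lay above INM for 3114 (12.9%) and below for 3690 (15.3%). All 3 SMC arrays did so for 1637 of 24073 (6.8%) and 2038 (8.47%). For genes below the median INM level the shares above were 13.9% and 9.85%. For brighter genes they were 12% and 3.87% above, and 19.9% and 13.7% below. The calls fixed the side of SMC replicates 2 and 3, so these counts are no separate support for them.

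**Figure D2:**
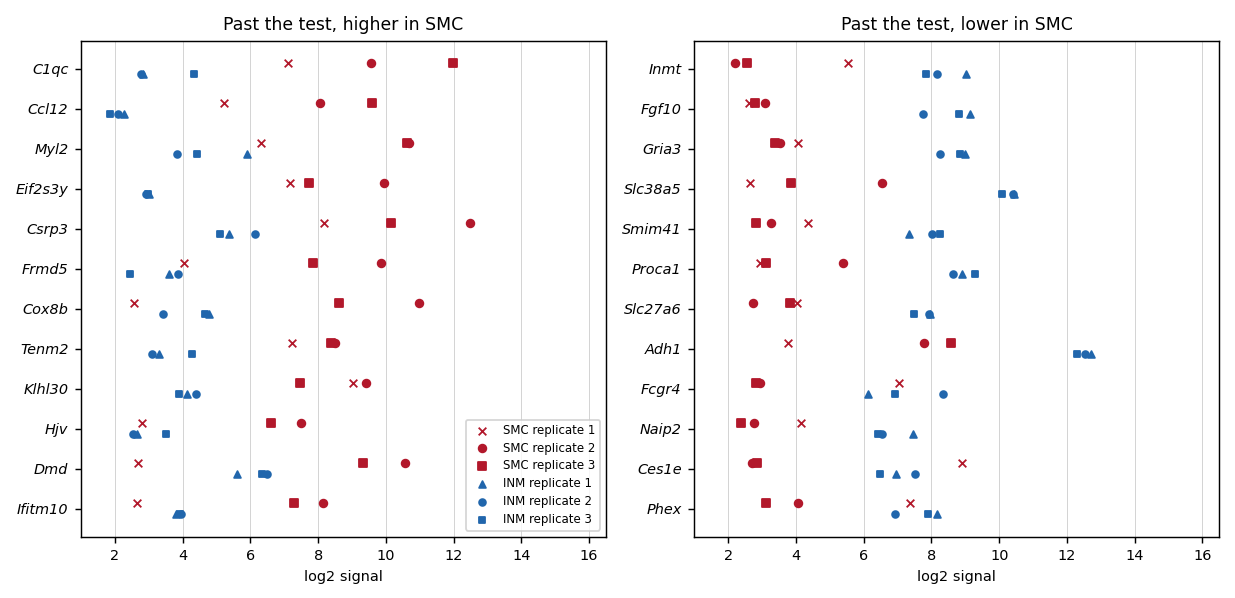
Log2 signal per array of the 12 most positive (left) and 12 most negative (right) named genes among those past the test without SMC replicate 1. Red marks are SMC (cross, replicate 1) and blue marks are INM, and each symbol is 1 array. For Cox8b, Dmd, Ifitm10, Fcgr4, Ces1e, Phex and Hjv the cross of SMC replicate 1 lies within or across the INM range, and for the others in the plot all SMC arrays lie on 1 side of INM.

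Most contractile genes of smooth muscle had a higher signal in SMC replicates 2 and 3 than in INM, though none passed the test. Of 23 measured contractile genes 20 had a positive difference without SMC replicate 1 and 3 a negative one, with a median of 1.27 against -0.03 over all genes, and 0 were called. SMC replicates 2 and 3 lay above all INM arrays for 12 of the 23 and below for 0, against 12.9% above and 15.3% below over all genes. With all 3 SMC arrays 6 were above and 0 below, and the median was 0.67. By array the list stood 0.31, 1.75 and 0.72 above the INM mean in SMC replicates 1 to 3. The INM arrays themselves stood at -0.10, -0.31 and 0.27, so INM replicate 3 lay close to SMC replicate 1.

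Myh11, the smooth muscle myosin heavy chain, read 14.34, 15.02 and 14.67 in SMC, against 12.09, 11.89 and 13.44 in INM. In this probe the groups were separate, with a difference of 2.37 ± 0.48 (adjusted p = 0.109). In the other bright Myh11 probes SMC replicates 2 and 3 lay above INM and SMC replicate 1 lay below it. In a dim Myh11 probe the groups overlapped. Des, the intermediate filament desmin, read 2.90, 14.02 and 12.03 in SMC, against 9.01, 7.25 and 10.68 in INM. Cnn1, the actin-binding calponin of smooth muscle, read 9.63, 14.05 and 12.12 in SMC, against 10.12, 9.75 and 11.43 in INM. Both lay above INM in SMC replicates 2 and 3 and not in replicate 1. Actg2, the enteric smooth muscle actin, differed by 2.17 ± 0.56 without SMC replicate 1, and its sign turned to -0.26 with it. Myl9, the regulatory light chain of smooth muscle myosin, read 13.48, 14.28 and 13.15 in SMC, against 12.42, 12.04 and 13.17 in INM, and the groups overlapped through INM replicate 3. The largest difference in the list was that of Ldb3, a Z-disc protein shared by heart and skeletal muscle, at 4.84 ± 0.78 (adjusted p = 0.0645). Ldb3 read 5.11, 10.39 and 7.62 in SMC, against 4.63, 3.77 and 4.10 in INM. All SMC arrays lay above INM, SMC replicate 1 by the least.

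Regulators and receptors of contraction moved less as lists. Among 13 smooth muscle regulators the median difference was 0.10 and 0 were called. Myocd, which encodes myocardin, read 3.60, 7.88 and 5.89 in SMC, against 2.54, 3.31 and 4.01 in INM, with a difference of 3.60 ± 0.71 (adjusted p = 0.104). SMC replicate 1 lay within the INM range and the other SMC arrays above it. Tcf21, a transcription factor of fibroblast progenitors, went the other way at -2.90 ± 0.48 (adjusted p = 0.0685). It read 8.08, 7.64 and 7.71 in SMC, against 11.07, 10.32 and 10.34 in INM, with no overlap. Of 19 receptors and channels of contraction 0 were called and 13 were positive. Chrm2, a muscarinic acetylcholine receptor of smooth muscle and heart, had the largest difference at 3.66 ± 0.55 (adjusted p = 0.0504). Ryr2, the calcium release channel that is most abundant in heart, differed by 3.66 ± 1.05 and Kcnmb1, the smooth muscle beta subunit of a calcium-activated potassium channel, by 2.74 ± 0.67, and neither passed.

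The CArG box, whose letters were searched by name on both strands, was looked for in RefSeq promoter windows (build GRCm38.p6) from 250 bases before to 50 bases after each gene start. It was found in 535 of 32851 windows, or 1.63%, and 488 of the 27025 genes with a window held it. The sets below are counted by gene. Of 24 contractile genes 20 had a window, and 4 of them held the box. Of 26 cardiac muscle markers 23 had a window and 3 held it. Among genes past the test, 1 of the 20 higher genes with a window held it, which was Dmd, and 0 of the 26 lower genes with a window. The motif is its own reverse complement, so a match on 1 strand is also one on the other. The 250 bases before the start are shown for Dmd, the called gene, for Ldb3 and Myl9 of the contractile list and for Actc1, the cardiac actin, 5′ to 3′ on the strand of the gene with the box in capitals. They lie at chrX:82948620-82948869 on the plus strand, chr14:34588682-34588931 on the minus strand, chr2:156775214-156775463 on the plus strand and chr2:114052876-114053125 on the minus strand, and the boxes begin 98, 35, 161 and 47 bases before the gene start.
Dmd promoter: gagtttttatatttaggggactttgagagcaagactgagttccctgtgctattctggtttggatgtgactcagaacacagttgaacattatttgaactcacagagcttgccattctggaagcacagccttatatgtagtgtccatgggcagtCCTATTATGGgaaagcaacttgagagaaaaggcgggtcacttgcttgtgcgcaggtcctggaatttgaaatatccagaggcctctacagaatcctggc
Ldb3 promoter: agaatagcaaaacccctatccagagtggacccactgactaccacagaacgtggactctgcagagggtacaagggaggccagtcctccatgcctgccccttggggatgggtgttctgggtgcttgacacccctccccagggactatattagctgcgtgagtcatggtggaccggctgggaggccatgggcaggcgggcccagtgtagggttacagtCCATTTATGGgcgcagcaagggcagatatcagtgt
Myl9 promoter: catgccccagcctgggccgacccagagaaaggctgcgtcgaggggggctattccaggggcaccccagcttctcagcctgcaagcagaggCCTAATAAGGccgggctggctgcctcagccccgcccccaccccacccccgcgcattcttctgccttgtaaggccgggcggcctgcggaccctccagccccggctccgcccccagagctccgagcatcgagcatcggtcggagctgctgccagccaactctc
Actc1 promoter: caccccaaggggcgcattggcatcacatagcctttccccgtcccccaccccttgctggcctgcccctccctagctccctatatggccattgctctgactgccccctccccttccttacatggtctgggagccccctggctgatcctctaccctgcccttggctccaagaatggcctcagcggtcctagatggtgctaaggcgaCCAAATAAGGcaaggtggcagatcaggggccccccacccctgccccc

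The most positive list of all was that of cardiac muscle, a tissue that the sort did not aim for. Of 26 cardiac markers 24 were positive without SMC replicate 1, with a median of 3.65, and 3 were called higher (Myl2, Csrp3 and Cox8b). SMC replicates 2 and 3 lay above all INM arrays for 20 of the 26 and below for 1, and all 3 SMC arrays for 10 and 0. Over all genes 12.9% lay above INM in SMC replicates 2 and 3 and 6.8% in all 3. By array the list stood 0.09, 4.93 and 2.32 above the INM mean in SMC replicates 1 to 3, so its size differed among the SMC arrays and was close to INM in replicate 1. INM also held such RNA: Myh6, the atrial myosin heavy chain, read 5.25, 15.99 and 14.96 in SMC, against 13.03, 12.53 and 13.33 in INM. SMC replicate 2 was at the upper end of the scale (highest signal 15.9994) for Myh6, and also for Myl4 and Actc1, so their differences may be understated. The Myh6 difference in this probe was 2.51 ± 0.88 without SMC replicate 1, not past the test, and -0.90 with it. A dimmer Myh6 probe read 8.12, 13.50 and 9.19 in SMC, against 5.95, 4.89 and 5.92 in INM. All SMC arrays lay above INM there, with a difference of 5.76 ± 1.11 (limma adjusted p over features = 0.0988).

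Myl2, the ventricular regulatory myosin light chain, read 6.32, 10.68 and 10.61 in SMC, against 5.89, 3.83 and 4.43 in INM. The difference was 5.93 ± 0.67 (limma adjusted p = 0.0253), and SMC replicate 1 lay just above the highest INM array. Csrp3, the muscle LIM protein of the Z-disc, read 8.17, 12.48 and 10.14 in SMC, against 5.36, 6.15 and 5.11 in INM. It rose by 5.77 ± 0.78 (adjusted p = 0.0434) and all SMC arrays lay above INM. Cox8b, the heart and muscle isoform of a cytochrome oxidase subunit, read 2.56, 10.98 and 8.61 in SMC, against 4.77, 3.41 and 4.65 in INM. Its call (5.52 ± 0.77, adjusted p = 0.045) is carried by SMC replicates 2 and 3, and replicate 1 lay below INM.

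The other cardiac genes missed the threshold, with differences between -0.54 and 5.03. Nkx2-5, a transcription factor of the heart field and of pulmonary vein muscle, read 7.92, 8.46 and 7.02 in SMC, against 4.56, 2.40 and 3.23 in INM (4.34 ± 0.73, adjusted p = 0.0697). Myl3, the ventricular essential light chain, read 9.76, 11.56 and 9.35 in SMC, against 5.25, 6.70 and 6.53 in INM (4.30 ± 0.67, adjusted p = 0.0578). In both genes all 3 SMC arrays lay above all INM arrays. Myl4, the atrial essential light chain, read 11.96, 15.999 and 14.25 in SMC, against 11.42, 10.59 and 11.57 in INM. Actc1 read 11.41, 15.996 and 14.46 in SMC, against 11.95, 11.69 and 12.36 in INM. In this Myl4 probe all SMC arrays lay above INM, and in Actc1 SMC replicate 1 lay below it. A second bright Myl4 probe read 8.53, 15.99 and 12.75 in SMC, against 9.49, 9.67 and 10.11 in INM. SMC replicate 1 lay below INM there, and above it in a further, dim probe. Tbx20, another heart transcription factor, differed by 3.75 ± 0.55, and Actc1 by 3.23 ± 0.48, each with an adjusted p of 0.0504. Nppa and Nppb, the natriuretic peptides of the atrium and ventricle, differed by -0.44 and -0.54 (adjusted p = 0.799 and 0.605). The 20 skeletal muscle markers had a median of 0.53 and 0 calls. In bulk sorted cells, more cells of a type and more RNA per cell cannot be told apart. Respiratory chain genes, abundant in heart muscle, were positive for 21 of 21 without SMC replicate 1 (median 0.67, 0 called), and stood at 1.42 in SMC replicate 2 and 0.14 in SMC replicate 3. The part of heart cells in the contractile differences was not tested. Ldb3 is known as a gene of striated muscle and Des is made in all muscle types.

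**Figure D3:**
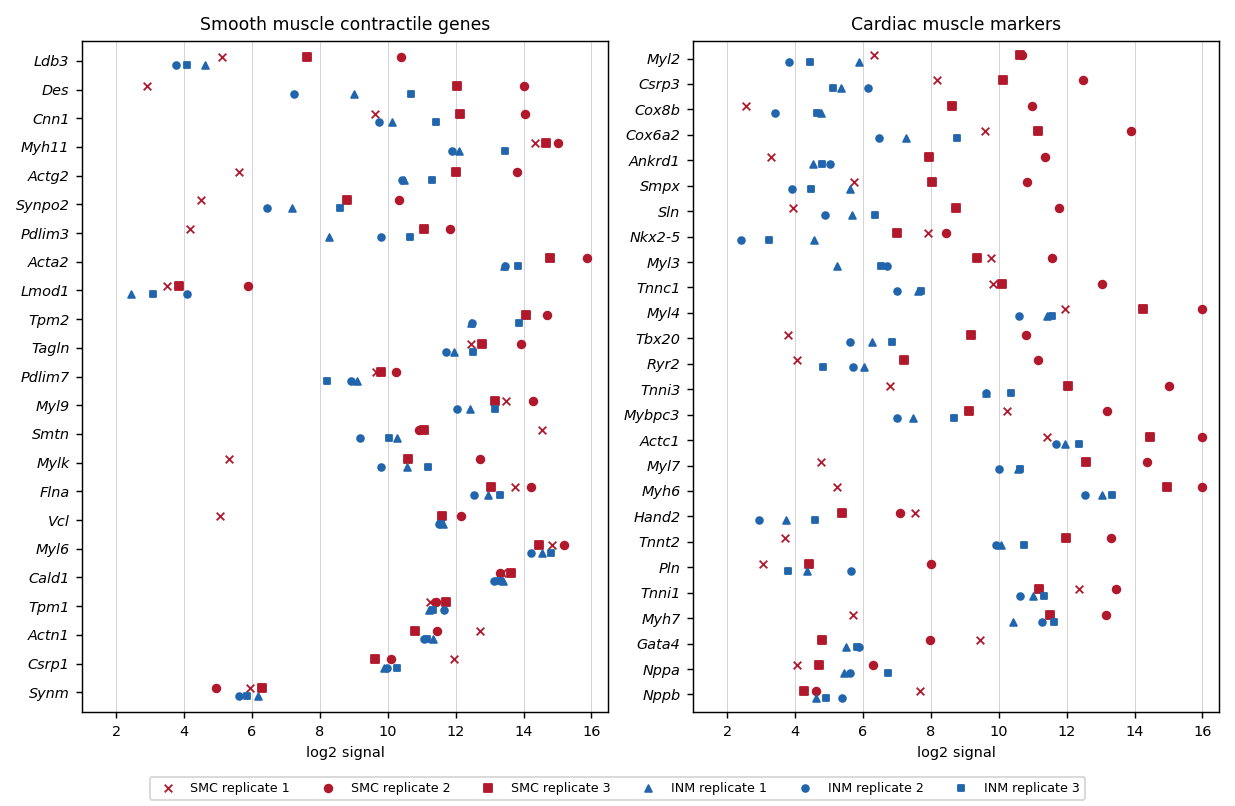
Log2 signal per array of the 23 smooth muscle contractile genes (left) and the 26 cardiac muscle markers (right), ordered by the difference without SMC replicate 1. Red marks are SMC and blue marks are INM, 1 symbol per array. SMC replicate 2 is to the right in most rows of both panels, and SMC replicate 1 (crosses) ranges from below to above INM.

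Several further genes of muscle and of the cell membrane were higher in SMC. Dmd, which encodes dystrophin, the link between actin and the matrix, read 2.67, 10.57 and 9.34 in SMC, against 5.60, 6.49 and 6.34 in INM (3.81 ± 0.45, adjusted p = 0.0297). SMC replicate 1 lay below INM, and of 9 other Dmd probes 1 had an unadjusted p under 0.05. Hspb6, a small heat shock protein of muscle, read 6.53, 13.22 and 11.71 in SMC, against 9.38, 8.77 and 8.94 in INM (3.44 ± 0.46, adjusted p = 0.0422). In this probe Hspb6 too was high in SMC replicates 2 and 3 alone. Its other probe read 8.96, 11.90 and 9.27 in SMC, against 8.49, 8.00 and 8.23 in INM, with all SMC arrays above. Tenm2, a teneurin adhesion receptor, read 7.24, 8.48 and 8.38 in SMC, against 3.31, 3.10 and 4.28 in INM (4.87 ± 0.42, adjusted p = 0.00994). Klhl30, a kelch-like gene, read 9.03, 9.40 and 7.46 in SMC, against 4.14, 4.39 and 3.90 in INM (4.29 ± 0.58, adjusted p = 0.0422). In the probes used for Tenm2 and Klhl30 the 3 SMC arrays stood together, at least 2.96 above the highest INM array. Other Tenm2 probes differed by 1.10, -0.06 and 0.96. The other Klhl30 probe differed by 2.63, with SMC replicate 1 (3.28) below INM. Nlgn1, a synaptic adhesion protein that also occurs in vessels, read 6.13, 6.54 and 5.40 in SMC, against 2.41, 3.18 and 1.82 in INM. Frmd5, a membrane-linked FERM protein, differed by 5.56 ± 0.75, and Hjv, the BMP co-receptor hemojuvelin of muscle and liver, by 4.15 ± 0.44. In Hjv SMC replicate 1 lay within the INM range and in Frmd5 it lay 0.18 above it. The rest of the higher calls with a described function were Ifitm10, a member of the interferon-induced transmembrane family, Slc22a4, a transporter of ergothioneine, and Trmt61a, a tRNA methyltransferase subunit, at 3.81, 2.43 and 2.29. SMC replicate 1 lay below INM for Ifitm10 and Trmt61a and above it for Slc22a4. Fam78a differed by 3.55 ± 0.47, with all SMC arrays above INM.

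Genes of lipid-storing and matrix fibroblasts were lower in SMC. Of 20 markers 19 were negative without SMC replicate 1, with a median of -1.86, and 3 were called lower (Inmt, Fgf10 and Adh1). SMC replicates 2 and 3 lay below all INM arrays for 17 of the 20 and above for 0, and all 3 SMC arrays for 15 and 0. Over all genes 15.3% lay below INM in SMC replicates 2 and 3 and 8.47% in all 3, and the share in all 3 was 13.7% for genes at or above the median INM level. By array the list stood at -2.82, -2.56 and -1.81 in SMC replicates 1 to 3, against 0.26, -0.12 and -0.07 in INM. SMC replicate 1 also stood low for other lists, at -5.24 for the respiratory chain and -5.61 for collagens and basement membrane.

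Inmt, which methylates indolamines and marks alveolar fibroblasts, read 5.53, 2.21 and 2.55 in SMC, against 9.02, 8.17 and 7.85 in INM. It fell by 5.97 ± 0.49 on the log2 scale (limma adjusted p = 0.00941), and every SMC array lay at least 2.32 below INM. Fgf10 read 2.60, 3.10 and 2.78 in SMC, against 9.12, 7.75 and 8.81 in INM. This was the widest gap below INM of any gene over all 6 arrays, at 4.65, with a difference of -5.62 ± 0.60 (adjusted p = 0.0203). Adh1, an alcohol dehydrogenase that oxidises retinol, read 3.77, 7.77 and 8.59 in SMC, against 12.72, 12.54 and 12.30 in INM (-4.34 ± 0.34, adjusted p = 0.00941). Its other probes differed by -3.63 and, for one that was dim in both groups, by -1.88. The near misses were of the same kind. Mfap4, a microfibril protein, read 10.38, 13.19 and 13.56 in SMC, against 15.998, 15.82 and 15.86 in INM (-2.52 ± 0.38, adjusted p = 0.0504). The INM values lie at the upper end of the scale, whose highest signal is 15.9994, so the difference may be understated. Col13a1, a transmembrane collagen, differed by -3.44 ± 0.51 (adjusted p = 0.0504) and Meox2, a mesenchymal homeobox factor, by -2.40 ± 0.43 (adjusted p = 0.0821). Wnt2, a WNT ligand of lung mesenchyme, and Pparg, the regulator of lipid storage, differed by -1.89 ± 0.53 and -1.83 ± 0.51, with no overlap over all 6 arrays.

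**Figure D4:**
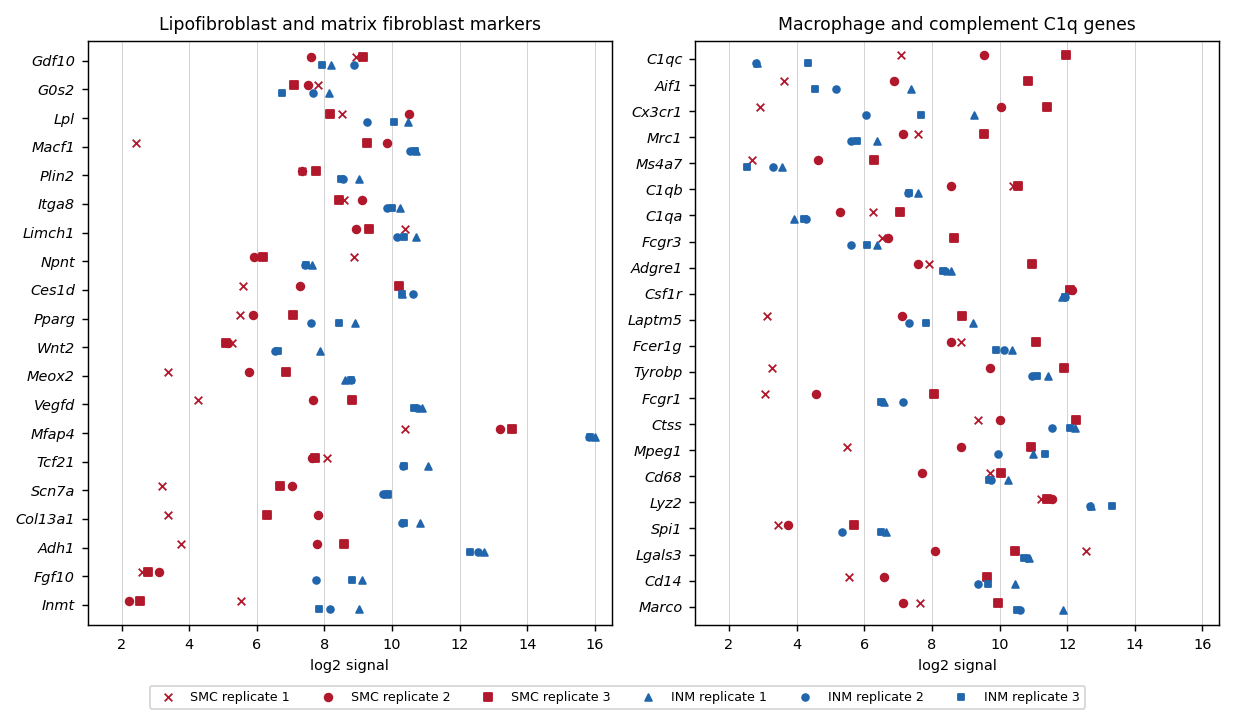
Log2 signal per array of the 20 lipofibroblast and matrix fibroblast markers (left) and the 22 macrophage and complement C1q genes (right), ordered by the difference without SMC replicate 1. Red marks are SMC and blue marks are INM, 1 symbol per array. Fgf10, Inmt and Adh1 stand apart at the bottom left, and C1qc at the top right.

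The pathways around these genes were read from their own lists. Of 17 FGF pathway genes 16 were negative and only Fgf10 was called with 1 probe per gene, with a list median of -0.48. Fgfr4, an FGF receptor, read 9.31, 6.98 and 5.58 in SMC, against 9.71, 8.81 and 9.06 in INM (-2.91 ± 0.47, adjusted p = 0.0645). Fgf7, a further ligand for epithelium, read 4.69, 7.17 and 4.48 in SMC, against 8.20, 7.28 and 7.81 in INM, and did not pass. SMC replicate 1 lay within the INM range for this Fgfr4 probe. A further Fgfr4 probe read 3.29, 4.41 and 3.69 in SMC, against 8.49, 8.73 and 8.15 in INM, and passed when features were the unit (-4.41 ± 0.41, adjusted p over features = 0.0149). For Fgf7 all SMC arrays lay below INM. In retinoid metabolism 1 of 16 genes was called, Adh1, and 10 were negative. In lipid uptake and storage 1 of 20 was called. This was Slc27a6, a fatty acid transporter, which read 4.02, 2.72 and 3.83 in SMC, against 7.96, 7.94 and 7.49 in INM (-4.52 ± 0.56, adjusted p = 0.0345). The WNT, hedgehog, NOTCH and TGF-beta and BMP lists had 0 calls and medians from -0.30 to 0.00.

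Further genes lower in SMC past the test without SMC replicate 1 encode secreted, matrix and actin-linked proteins. The fixed lists of elastic fibre genes and of collagens and basement membrane had 0 calls, with medians of -0.19 and -0.29. Frem1, a basement membrane protein, read 2.25, 6.02 and 5.83 in SMC, against 9.81, 9.24 and 9.45 in INM (-3.58 ± 0.35, adjusted p = 0.0159). Slit2, the ligand of Robo receptors, read 2.64, 5.94 and 6.51 in SMC, against 9.94, 9.32 and 9.36 in INM (-3.31 ± 0.39, adjusted p = 0.0297). In the probe used for each of these genes every SMC array lay below INM by at least 2.80. Other Frem1 probes differed by -0.87, -2.75 and 1.56. Other Slit2 probes differed by -4.64 to -0.34. SMC replicate 1 lay above INM in the Slit2 probes that differed by -2.66 and -0.34. Ccbe1, which helps activate the lymphatic growth factor VEGF-C, read 2.88, 3.26 and 3.11 in SMC, against 7.22, 6.16 and 7.28 in INM. Svep1, a large adhesion protein needed in lymphatic development, read 4.33, 7.88 and 8.05 in SMC, against 11.05, 10.66 and 10.44 in INM. Htra3, a secreted serine protease, read 5.86, 6.08 and 6.21 in SMC, against 9.05, 8.73 and 9.07 in INM. The 3 differences were -3.70, -2.75 and -2.80, each with no overlap over the 6 arrays in the probe used. Other probes differed by -0.48, -1.39 and 1.11 for Ccbe1 and by -0.66 and 1.49 for Svep1. The other Htra3 probe differed by -1.83, with SMC replicate 1 (8.61) above INM. Ablim3, an actin-binding LIM protein, read 7.03, 8.09 and 8.66 in SMC, against 12.63, 12.17 and 12.13 in INM (-3.93 ± 0.39, adjusted p = 0.0159). Gfra2, the co-receptor of the nerve factor neurturin, differed by -2.93 ± 0.39 and Car2, a carbonic anhydrase, by -2.70 ± 0.38.

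Receptors, channels and transporters were also among the lower genes. Gria3, a subunit of the AMPA glutamate receptor, read 4.07, 3.54 and 3.38 in SMC, against 8.99, 8.25 and 8.83 in INM (-5.23 ± 0.39, adjusted p = 0.00941). Slc38a5, a neutral amino acid transporter, read 2.65, 6.54 and 3.84 in SMC, against 10.44, 10.39 and 10.07 in INM (-5.11 ± 0.74, adjusted p = 0.0478). Smim41, a small membrane protein, read 4.34, 3.27 and 2.81 in SMC, against 7.32, 8.02 and 8.25 in INM (-4.82 ± 0.40, adjusted p = 0.00941). In the probes used for these 3 genes the groups did not overlap. Other Gria3 probes differed by -1.86 and -2.28, and SMC replicate 1 (8.26) lay above INM in the latter. Proca1 differed by -4.69 ± 0.65, Fmo4, a flavin monooxygenase, by -4.03 ± 0.39 and Gda, a guanine deaminase, by -3.97 ± 0.53, also with no overlap. Lpar3, a receptor for lysophosphatidic acid, differed by -2.80 ± 0.40. Further lower calls were Hpca, a neuronal calcium sensor, B3gnt9, a glycosyltransferase, Raver2, an RNA-binding protein, Plekhb1, Tmem204, Tmem132c and 2 gene models. B3gnt9 has an empty cell in SMC replicate 3, so its call without replicate 1 rests on a single SMC array. For Tmem132c SMC replicate 1 read 8.00, above the INM range of 6.33 to 6.91. For 1 of the gene models, AI504432, it read 7.99, above the INM range of 6.33 to 7.71.

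For some lower genes SMC replicate 1 went against the other SMC arrays. Ces1e, a carboxylesterase, read 8.91, 2.70 and 2.85 in SMC, against 6.96, 7.52 and 6.47 in INM. Phex, an endopeptidase of phosphate balance, read 7.37, 4.06 and 3.11 in SMC, against 8.15, 6.93 and 7.90 in INM. Fcgr4, an Fc receptor of myeloid cells, read 7.05, 2.94 and 2.82 in SMC, against 6.12, 8.33 and 6.92 in INM. Their calls (-4.21, -4.08 and -4.24) rest on SMC replicates 2 and 3, and replicate 1 lay above or within INM. The same held for Kcna1, a potassium channel, Spink5, a protease inhibitor of epithelia, and Caps2, a calcium-binding protein, at -2.42, -2.53 and -1.91. Slc36a2, an amino acid transporter, read 10.80 in SMC replicate 1, within the INM range of 10.79 to 11.34. Naip2, an inflammasome sensor, was separate over all 6 arrays at -4.23 ± 0.44.

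The 2 most positive calls were C1qc and Ccl12. C1qc, the C chain of complement C1q, which macrophages secrete, read 7.10, 9.55 and 11.97 in SMC, against 2.81, 2.78 and 4.33 in INM. The difference was 7.45 ± 0.74 (limma adjusted p = 0.0159), with every SMC array above INM and a spread of several log2 units among them. Its second probe was dim, at 2.83, 4.15 and 3.15 in SMC, against 3.59, 3.66 and 3.78 in INM, and differed by -0.03. Ccl12, a chemokine that draws monocytes, read 5.21, 8.06 and 9.60 in SMC, against 2.26, 2.08 and 1.86 in INM (6.77 ± 0.46, adjusted p = 0.00941). Ms4a6b, a membrane protein of immune cells, differed by 3.43 ± 0.33 (adjusted p = 0.0159), with SMC replicate 1 below INM.

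The macrophage list was split. Of 22 genes 10 were positive and 12 negative, with a median of -0.22, and 1 was called. SMC replicates 2 and 3 lay above all INM arrays for 8 of the 22 and below for 3. All 3 SMC arrays did so for 6 and 2. Over all genes 12.9% lay above and 15.3% below in SMC replicates 2 and 3, and 6.8% and 8.47% in all 3. C1qa, the A chain, read 6.25, 5.29 and 7.04 in SMC, against 3.93, 4.28 and 4.23 in INM. C1qb, the B chain, read 10.41, 8.57 and 10.56 in SMC, against 7.58, 7.29 and 7.33 in INM. Both were above INM in all SMC arrays without passing the test (adjusted p = 0.174 and 0.191). Aif1 and Cx3cr1, the next most positive after C1qc, differed by 3.16 ± 1.29 and 3.06 ± 0.95 (limma adjusted p = 0.368 and 0.258). SMC replicate 1 lay below INM in both. Marco, a scavenger receptor of alveolar macrophages, read 7.66, 7.14 and 9.95 in SMC, against 11.87, 10.60 and 10.52 in INM. Cd14 and Lgals3 differed by -1.72 and -1.53 and did not pass. Pf4, a chemokine of platelets and tissue macrophages, differed by 4.62 ± 1.12 (adjusted p = 0.163). By array the list stood at -1.49, -1.19 and 0.85 in SMC replicates 1 to 3.

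Of 4 sex-linked genes looked at, 2 differed between the groups. Eif2s3y, the Y-linked copy of a translation initiation factor subunit, read 7.17, 9.94 and 7.72 in SMC, against 3.02, 2.91 and 2.97 in INM (5.86 ± 0.68, adjusted p = 0.0297). Uty, a Y-linked histone demethylase relative, read 7.13, 5.98 and 6.13 in SMC, against 2.62, 2.00 and 3.39 in INM (3.39 ± 0.45, adjusted p = 0.0422). In MYF they read 11.30, 10.31 and 9.64 for Eif2s3y and 7.08, 6.93 and 6.28 for Uty. These 2 are among the 22 higher calls, but other Uty probes, dim in both groups, differed by 0.03 and -0.27. Kdm5d, also Y-linked, read 9.96, 10.85 and 11.28 in SMC, against 11.13, 10.96 and 11.21 in INM (-0.04 ± 0.30, adjusted p = 0.978). Xist, the RNA of the inactive X chromosome, read 5.41, 10.53 and 11.94 in SMC, against 12.42, 11.85 and 11.94 in INM (-0.83 ± 1.43, adjusted p = 0.850). Neither of these passed, and both were bright in INM. A further 5 calls lie on the X chromosome, of which 1 was higher, Dmd. The labels used here do not give the sex of the animals, so its part in the differences was not tested.

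Markers of other cell types gave signal in both groups. Sftpc, the surfactant protein of alveolar epithelium, read 13.56, 15.30 and 15.08 in SMC, against 15.78, 15.99 and 15.93 in INM. Of 25 epithelial markers 24 were negative, with a median of -1.16 and 0 calls, and the list stood at -0.80, -2.00 and -0.34 in SMC replicates 1 to 3. Of 22 endothelial markers 17 were negative (median -0.71, 0 called) and of 12 mural cell markers 9 (median -0.62, 0 called). Rgs5, a pericyte gene, differed by 0.49 without SMC replicate 1 and -2.27 with it. Motile cilia genes stood at -1.49, -2.85 and 0.62 in SMC replicates 1 to 3, so the SMC arrays differed among themselves by more than the INM arrays did, which lay between -0.12 and 0.02. The part of other cell types, or of their RNA, in the called differences was not tested.

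**Figure D5:**
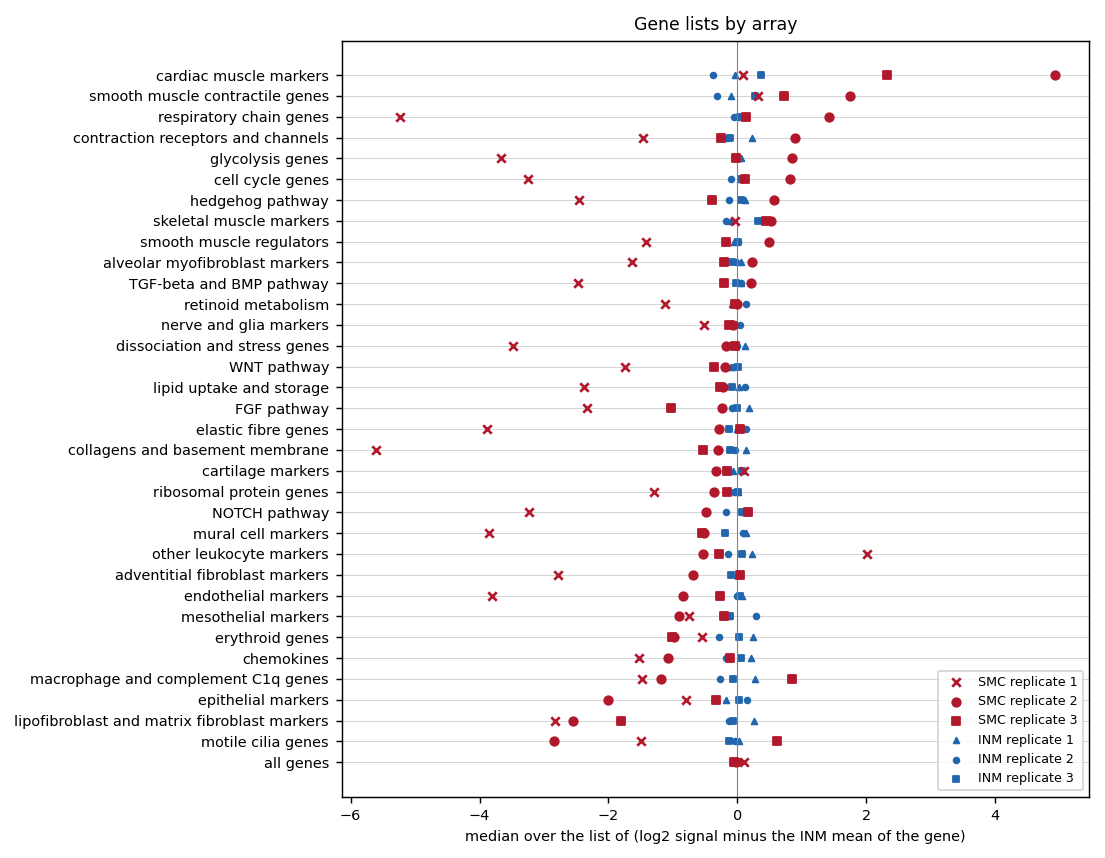
Median over each of 33 gene lists, and over all genes, of the log2 signal minus the INM mean of the gene, for 3 SMC arrays (red) and 3 INM arrays (blue). Cardiac markers stand at 4.93 and 2.32 in SMC replicates 2 and 3, fibroblast markers at -2.56 and -1.81, and SMC replicate 1 (crosses) is low for most lists.

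Beside MYF, the called genes fell into different patterns. Of the 22 genes higher in SMC than in INM, 18 were also higher in SMC than in MYF, where 8.19% of all genes were called in either direction. Of the 38 lower genes 24 were also lower in SMC than in MYF and 3 were higher there. These comparisons share the SMC arrays and so are not separate evidence. Fgf10 read 6.49, 8.34 and 7.41 in MYF, Adh1 12.60, 12.87 and 12.95, and Gria3 8.56, 9.36 and 8.43, all nearer to INM than to SMC. Ces1e, Naip2, Gda and Spink5 were low in MYF as in SMC, and Spp1, the secreted protein osteopontin, read 4.90, 5.13 and 4.97 in SMC, 3.35, 2.58 and 2.65 in MYF and 7.36, 7.27 and 7.74 in INM. Slc6a14, an amino acid transporter, and Cers3, a ceramide synthase, had the same order in SMC replicates 2 and 3, MYF and INM. In MYF minus INM, 10.7% of all genes were called, and of the 38 lower genes 17 were lower in MYF too and 4 higher.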

How the data were processed

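RNA of 9 sorted cell samples was measured on one-colour arrays. The authors deposited log2 signals per feature, made with limma per the submitters' processing notes, with no version given. All columns share a mean of 5.89 and an SD of 3.00 and were read as quantile-normalized. Of 62976 features 733 had an empty cell (1197 cells), which stayed empty. Platform symbols were brought to RefSeq names, through which 1887 features were updated and 7 kept an old symbol. Each gene was represented by its probe with the highest mean over 9 arrays. No detection calls were used, so signals near the lowest (1.65) have no stated order. The number of arrays limits the precision.

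The comparison used limma 3.58.1 (lmFit, then eBayes) in R 4.3.3, and files were read with version 1.17.8 of data.table. The model had 1 mean per group over SMC, MYF and INM, no covariate, two-sided, Benjamini-Hochberg adjusted p under 0.05 over all genes. The fit was made with all 9 arrays and without SMC replicate 1. Differences are SMC minus INM. The fit was run on simulated data in which every group had the same spread for a gene. That run cannot test whether the SMC arrays share the spread of the other groups. The members, the 33 gene lists and the rules were chosen with earlier results of these data known. Named were Acta2 and Pdgfra, the 12 most positive and 12 most negative called genes that did not overlap and were at or above the median level, the 8 widest gaps in each direction over 6 arrays, the 3 most positive and negative genes of each list, and other genes past the test. The text gives a part of these, and other list members (Myh11, Tbx20, Nkx2-5, Myl4, Actc1, Myh6, C1qa, C1qb, Meox2, Col13a1, Wnt2, Myl9 and Actg2), Kdm5d and Xist were chosen after their values were seen. Replicate numbers were not used as pairs: deviations of same-numbered SMC and INM arrays correlated at -0.08, -0.05 and -0.03. Alternatives were a replicate block, other groups, weights, a variance trend, scaling, filters, probe rules, a minimum difference and each array left out. The contrasts with MYF, the array weights of the 8 arrays and single genes with SMC replicate 1 kept were added after seeing the data.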

Additional observations from a re-analysis of the deposited data

How the results depend on the processing

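With all 9 arrays the count of genes past limma's test was 0. It was 611 with array weights (309 higher and 302 lower, including all 60 genes called without SMC replicate 1), where SMC replicate 1 had a weight of 0.032, and 3 with the probe of the largest interquartile range. With single arrays left out it ranged from 0 to 60: 60 without SMC replicate 1, 4 without SMC replicate 2, 24 without SMC replicate 3 and 0 without any single MYF or INM array. It stayed 0 under the other alternatives run, the replicate block included.

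Without SMC replicate 1 the count was 60. It was 0 with the replicate number as a block, 0 with the SMC and INM arrays alone, 3 with array weights, 117 with a variance trend on level, 101 with every feature as its own unit and 8 when the log2 difference was tested against 1. With 1 further array left out it ranged from 5 to 984, with 5, 11 and 8 without INM replicates 1 to 3, and 12, 21 and 11 without MYF replicates 1 to 3. Where 1 SMC array was left, it was assumed to vary like the other groups. A further quantile normalization, centring, the filter on level, the other probe rules and leaving out genes with an empty cell gave 50 to 73, and shared 31 to 60 of the 60 genes, all in the same direction. Genes whose 3 SMC and 3 INM arrays did not overlap numbered 3675, against 2069 with genes below the median level left out and 6804 with SMC replicates 2 and 3 only.

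Of the genes named, the sign turned with SMC replicate 1 kept for Actg2 (-0.26), Myh6 (-0.90), Rgs5 (-2.27) and Nppb (0.54), and without SMC replicate 3 for Nppa (0.36, against a lowest value of -1.24 without SMC replicate 2). Other probes of 28 called genes numbered 70, of which 56 had the same direction, 31 of them with an unadjusted p under 0.05, and 14 the opposite. The cause of these changes was not tested. Differences of genes near the top of the scale may be understated. Detection calls were not used, so the lower end of the scale limits the size of differences from dim genes.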
